A study of Mus musculus with 36 samples.

Results

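Hepatocytes touch each other across membranes that carry gap junctions, tight junctions and adherens junctions, and 10 genes that encode proteins of these contacts were followed in mouse liver from 2 days before birth to Day 60. Chosen by name, they are the gap junction genes Gjb1, Gjb2 and Gja1, the tight junction genes Cldn1, Cldn2, Cldn3, Cldn14 and Ocln, and the adhesion genes Cdh1 and Ceacam1. All 10 were present among the 21889 gene symbols of the deposited table. The samples were whole livers of 36 male C57BL/6 mice (C57BL/6J in the study's methods), with 3 different animals at each of 12 ages, namely Day -2, Day 0 (right after birth and before suckling) then Days 1, 3 and 5, Days 10, 15 and 20, and Days 25, 30, 45 and 60. No treatment or genetic change was applied, weaning fell between Day 20 and Day 25, and the litter of each animal was not analysed here. Values are FPKM, fragment counts scaled to the length of the transcript and to the mapped fragments of the library, so levels of different genes can be compared. Of the 10 genes, 9 reached a mean of at least 1 FPKM at an age and were tested; Gja1 did not.

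Gap junctions are built from connexins, which form channels that let ions and small signalling molecules pass directly between neighbouring hepatocytes. Tight junctions, made of claudins and occludin and anchored to a cytoplasmic plaque, seal the bile canaliculus from the blood side of the cell and mark the border between the apical and the basolateral membrane. E-cadherin holds neighbouring cells together at adherens junctions, and CEACAM1 is an adhesion molecule of the canalicular membrane that is also known for its part in insulin clearance by the liver.

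Upstream sequence was looked at for 9 of the 10 genes, which were found in a RefSeq table of mouse start sites (GRCm38.p6). For each, the 250 bases before the start were searched on both strands for 6 short motifs. These were the E-box CAGGTG, the TATA box TATAAA, the HNF1 motif GTTAAT, an HNF4 core written CAAAGTCCA, the GC box GGGCGG and the CCAAT box CCAAT. Cldn3 and Cldn2 are shown because their means over the 12 ages ran closest together among the 9 tested genes, and Gjb2 and Cldn1 because their courses differed from those of Cldn3 and Cldn2 and from each other. Capitals mark the motif matches on either strand, the windows are read 5′ to 3′ on the strand of the gene, and they lie at chr5:134985964-134986213 on the plus strand (Cldn3), chrX:139800558-139800807 on the plus strand (Cldn2), chr14:57104703-57104952 on the minus strand (Gjb2) and chr16:26371840-26372089 on the minus strand (Cldn1).
Cldn3: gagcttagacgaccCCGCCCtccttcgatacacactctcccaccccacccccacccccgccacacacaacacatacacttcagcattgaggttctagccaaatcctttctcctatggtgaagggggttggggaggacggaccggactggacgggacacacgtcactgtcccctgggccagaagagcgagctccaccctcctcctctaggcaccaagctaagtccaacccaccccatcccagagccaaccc
Cldn2: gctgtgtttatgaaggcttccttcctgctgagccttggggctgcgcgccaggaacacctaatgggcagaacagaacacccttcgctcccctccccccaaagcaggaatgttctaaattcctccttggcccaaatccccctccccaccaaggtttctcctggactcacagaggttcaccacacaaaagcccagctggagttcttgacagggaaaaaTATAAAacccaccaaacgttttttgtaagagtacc
Gjb2: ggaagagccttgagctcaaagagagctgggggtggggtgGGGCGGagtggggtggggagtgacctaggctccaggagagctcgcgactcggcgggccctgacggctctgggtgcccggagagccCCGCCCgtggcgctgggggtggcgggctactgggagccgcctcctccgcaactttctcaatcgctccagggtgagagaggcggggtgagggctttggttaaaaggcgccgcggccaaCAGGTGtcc
Cldn1: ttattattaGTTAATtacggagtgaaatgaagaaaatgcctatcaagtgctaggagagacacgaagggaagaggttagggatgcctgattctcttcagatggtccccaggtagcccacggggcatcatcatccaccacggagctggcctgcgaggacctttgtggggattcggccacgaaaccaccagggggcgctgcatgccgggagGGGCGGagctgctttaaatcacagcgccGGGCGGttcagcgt

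The window of Cldn3 held 1 GC box and 9 CpG, with a GC content of 60.8%. That of Cldn2 held no GC box and 4 CpG, with a GC content of 52.0%, and had the TATA box TATAAA beginning 35 bases before the start. The window of Gjb2 was the richest of the 4 in GC (69.2%, 18 CpG) and held 2 GC boxes and, 9 bases before the start, an E-box. The Cldn1 window had 14 CpG, an HNF1 motif and 2 GC boxes. Over all 32851 windows of the same table the median GC content was 52.4% and the median CpG count was 6. The E-box was found in 17.2% of them, TATAAA in 12.4%, GTTAAT in 6.43%, CAAAGTCCA in 0.384%, GGGCGG in 32.7% and CCAAT in 33.8%. Thus the 2 genes with the closest courses did not share any of these matches in their windows. A match is a description of the letters and not a measured site.

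Summed FPKM was between 353712 and 450597 per mouse, and fragment counts were not used here. From the steps between low values, depth was estimated to differ between libraries by 0.878 to 1.21 times their mean, which is approximate, since 59.7% of the values used were whole fragment numbers to within 0.1. Replicates of an age correlated across genes with r of at least 0.952. None of the 10 hepatocyte genes looked at was at 0 in all mice of an age. This cannot check the label liver, since it also held for the pancreatic and erythroid markers. The hepatocyte sum had a mean of 8739 FPKM at Day -2, 50043 FPKM at Day 0 and 62955 FPKM at Day 60. The sum of the 7 erythroid markers in the table was highest at Day -2, with 3324 FPKM, against 69.4 FPKM in the mice of Day 60. Markers of tissues other than liver stood out in some libraries. Mouse 1 of Day 0 had 1173 FPKM of summed skeletal muscle markers and 10.1 FPKM of squamous keratins, mouse 2 of Day 1 had 91.95 FPKM of summed kidney markers, and mouse 1 of Day 60 had 26426 FPKM of summed pancreatic enzymes. Lower pancreatic sums, of up to 9215 FPKM, occurred in libraries of other ages, and mouse 3 of Day 1 had 5.10 FPKM of kidney markers. In bulk tissue, fewer cells of a type and less RNA per cell cannot be told apart.

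On the deposited scale, the 10 called changes of the junction genes between neighbouring ages fell between Day -2 and Day 3. In the steps from Day -2 to Day 0, to Day 1 and to Day 3, 54.6%, 31.6% and 11.3% of all genes were called. With GC and length trends removed there were 18 such changes, some of them later. Gjb1, Gjb2, Cldn2, Cldn3 and Ceacam1 were lower over Days -2 to 5 than over Days 25 to 60, whereas Cldn1 and Cdh1 were higher. Thus 5 of the 9 tested genes were lower and 2 higher, where 85.7% of all tested genes were called in this comparison, 15.5% lower and 70.2% higher (limma on log2(FPKM + 1), adjusted p under 0.05). The median log2 difference was -0.78 for the 9 genes and 0.54 for all tested genes. The direction of Cldn1 and Cdh1 was that of most genes. When each library was scaled to a common upper quartile, which brought the all-gene median down to 0.14, Cldn1 was no longer called (0.097, adjusted p = 0.608) and Cdh1 turned to -0.17 (adjusted p = 0.128). Cldn14 (-0.78, adjusted p = 1.03e-05) and Ocln (-0.36, adjusted p = 0.0115) were then called lower, which made 7 genes lower and 0 higher, with 78.8% of all genes called and 32% lower. Some other counts also rest on the scaling. Over the 9 genes and 25 comparisons, upper quartile scaling lost 12 of the 60 calls and gained 17, and removing from every library any trend across genes with their GC content or length lost 6, turned 1 around and gained 29.

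Over Days 10 to 20, Gjb1 and Gjb2 were lower and Cldn3 and Cdh1 were higher than over Days 25 to 60, at 57.3% of all genes called, 12.4% lower and 44.9% higher. The higher calls rested on the scaling. With upper quartile scaling, Cldn3 (0.28, adjusted p = 0.137) and Cdh1 (0.24, adjusted p = 0.0733) were not called. Cldn2 (-0.32, adjusted p = 0.0416) and Ceacam1 (-0.47, adjusted p = 0.00759) were then called lower, and no share of all genes is given for that scaling. Between the first and the second of these 3 age groups, 6 of the 9 genes (Gjb1, Gjb2, Cldn2, Cldn3, Cldn14 and Ceacam1) were lower at the earlier ages and none was higher, at 75.8% of all genes called and 14.6% lower.

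Compared with Day 60, 6 of the 9 genes were lower at Day -2 and none was higher, against 75.1% of all genes called and 18.6% called lower. With upper quartile scaling Ocln (-0.76, adjusted p = 0.0146) and Cdh1 (-0.93, adjusted p = 0.000303) were lower too, which made 8 of 9 with 69.7% of all genes called and 29% lower, and both were also lower with GC and length trends removed (-0.68 and -0.90). At Day 0, 7 were lower (63.9% of all genes called, 20.3% lower). On the first day after birth 3 were lower and 1 was higher (65% called, 11.7% lower and 53.4% higher). At Day 3, 2 were lower and 1 was higher (66% called, 10.3% lower and 55.7% higher). At Day 5, 3 were lower and 4 were higher (65.4% called, 8.5% lower and 56.9% higher). There were 2 of each at Day 10 (46% called, 10.6% lower and 35.3% higher). With upper quartile scaling, none of the 4 genes higher at Day 5 (Cldn1, Cldn3, Cldn14 and Cdh1) was called higher. Ocln was then called lower at Day 5 (-0.76, adjusted p = 0.0183). The higher genes of Day 1 (Cdh1) and Day 3 (Cldn1) also lost their calls with that scaling. On the deposited scale, only Gjb2 was called at Day 15, as lower (27.4% called, 8.95% lower), and only Ceacam1 at Day 30, also as lower (3.56% called, 1.79% lower). No gene of the 9 was called by limma at Day 20 (15.9%), Day 25 (7.42%) or Day 45 (0.233%). At an unadjusted p under 0.05 there was 1 at Day 20, there were 3 at Day 25 and there was 1 at Day 45, and Dunnett's comparison gave 0 at each of these ages. No share of all genes is given for either of these rules, so such counts cannot be set against a background. With GC and length trends removed, Gjb2 was called lower at Day 20 (-0.57, adjusted p = 0.0366) and Ocln at Day 25 (-0.53, adjusted p = 0.0142). With p-values adjusted over all genes and all 11 ages together, each of the 9 genes differed from Day 60 at some age, as did 90.7% of all tested genes.

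**Figure D1:**
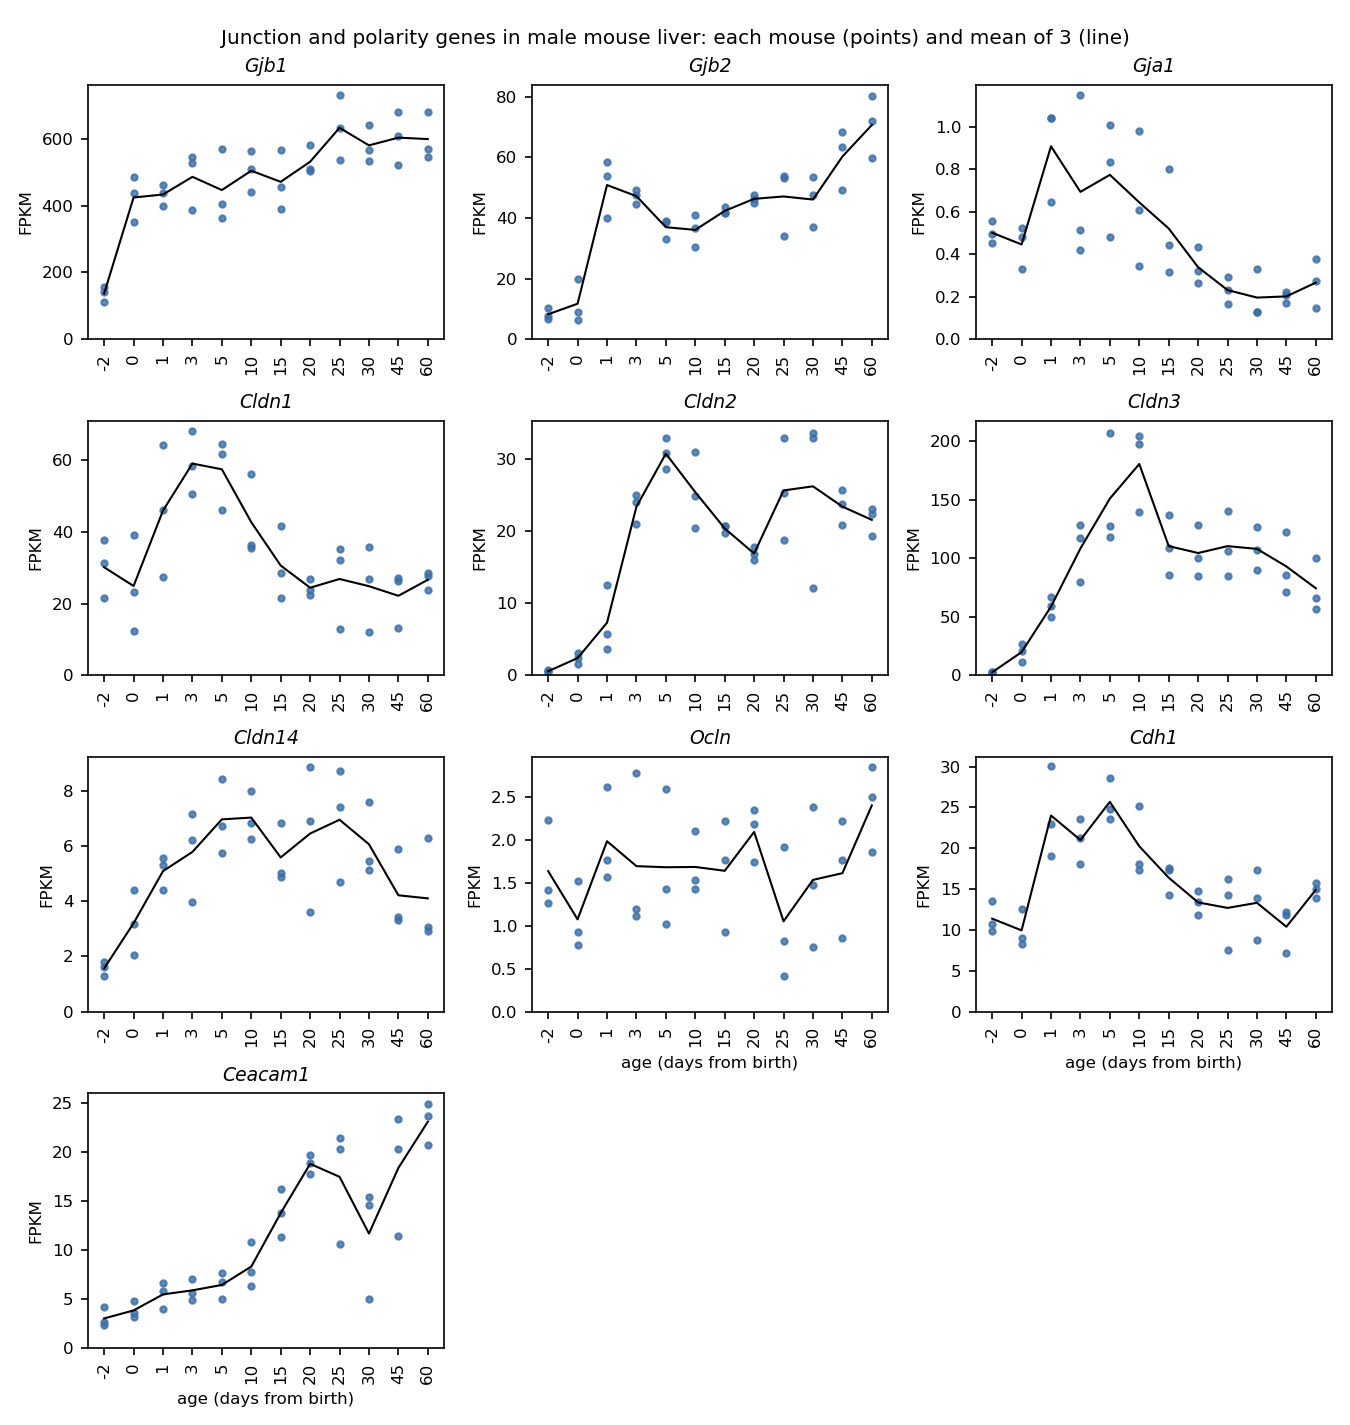
FPKM of the 10 junction genes (vertical axes, linear, each with its own range) at 12 ages in days from birth (horizontal axes), with a point for each of the 36 mice and a line through the means of 3 mice. The mean of Cldn2 was 0.575 FPKM at Day -2 and reached 30.8 FPKM by Day 5, that of Cldn3 was 2.67 FPKM and reached 181 FPKM by Day 10, whereas Ocln stayed between 1.05 and 2.41 FPKM.

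Gjb1 encodes connexin 32, the main gap junction protein of hepatocytes (chrX:98571717-98580968, plus strand, mm9). At Day -2 its level was 112, 143 and 156 FPKM in mice 1, 2 and 3, and at Day 0 it was 351, 437 and 485 FPKM. All 3 newborn mice were thus above all 3 mice of Day -2, where 60.8% of all tested genes also had no overlap, in either direction. The Gjb1 difference on the log2 scale was 1.62 (SE 0.18, adjusted p = 1.97e-08). At Day 1 the values were 399.6, 461 and 438 FPKM, at Day 3 they were 387, 544 and 527 FPKM, and at Day 5 they were 406, 570.4 and 363 FPKM. These ages overlapped with each other and with Day 0. At Day 10 the mice had 441, 563 and 509 FPKM, at Day 15 they had 389, 456 and 568 FPKM, and at Day 20 they had 503, 508 and 582 FPKM. At Day 25 the values were 536, 731 and 631 FPKM, at Day 30 they were 533, 565 and 642 FPKM, at Day 45 they were 521, 609 and 679 FPKM, and at Day 60 they were 547, 570.4 and 680.1 FPKM. The highest mean, 633 ± 97.8 FPKM (SD, n = 3) at Day 25, was 4.62 times the lowest, 137 ± 22.3 FPKM at Day -2, and in the order of the 12 means only Day -2 and Day 0 did not overlap as neighbours.

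Relative to Day 60, Gjb1 was lower by a log2 difference of -2.13 at Day -2 (SE 0.18, adjusted p = 8.47e-12). The differences at Day 0 (-0.50, adjusted p = 0.0145), Day 1 (-0.46, adjusted p = 0.0233) and Day 5 (-0.44, adjusted p = 0.029) depended on the scaling. They were -0.84, -0.95 and -1.08 with upper quartile scaling, under which Day 3 was called as well (-0.94, adjusted p = 0.000108), and -1.10, -1.08 and -1.17 with GC and length trends removed. As scaled by the authors, the call at Day 0 was lost without mouse 1 of Day 0 (adjusted p = 0.0956), those at Days 1 and 5 were lost without mouse 1 of the same age, that at Day 5 also without its mouse 3 (adjusted p = 0.169), and all 3 were lost without mouse 3 of Day 60. Over Days 10 to 20, Gjb1 was lower than over Days 25 to 60 by a log2 difference of -0.27 (adjusted p = 0.0181), a call that was lost without mouse 1 of Day 15 (adjusted p = 0.055). The step from Day 5 to Day 10 was not called, but was 0.65 (adjusted p = 0.0169) with upper quartile scaling and 0.57 (adjusted p = 0.000736) with the trends removed. The 12 mice of Days 25 to 60 were within 1.40-fold of each other in Gjb1.

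Gjb2 encodes connexin 26, the partner of connexin 32 in hepatocyte gap junctions (chr14:57717437-57723539, minus strand, mm9). Its level was 10.3, 7.69 and 6.73 FPKM at Day -2 and 19.8, 8.84 and 6.49 FPKM at Day 0. The highest of these 6 values, 19.8 FPKM, came from mouse 1 of Day 0, the library with muscle and keratin markers, whose part in it was not tested. At Day 1 the mice had 53.9, 58.5 and 40.1 FPKM, at Day 3 they had 49.3, 47.5 and 44.7 FPKM, and at Day 5 they had 38.7, 33.1 and 38.9 FPKM. Between Day -2 and Day 0 the difference of Gjb2 did not pass the test (log2 difference 0.34, 95% interval -0.16 to 0.83, adjusted p = 0.237). It was called with upper quartile scaling (0.58, adjusted p = 0.0376), with GC and length trends removed (0.56, adjusted p = 0.0202) and without mouse 3 of Day 0 (0.65, adjusted p = 0.0265). It was -0.086 (adjusted p = 0.745) without mouse 1 of Day 0, mouse 2 of Day 1 and mouse 1 of Day 60. Gjb2 rose between Day 0 and Day 1, by 2.15 on the log2 scale (SE 0.24, adjusted p = 9.38e-08), with all 3 mice of Day 1 above all 3 of Day 0. Between these ages 41.5% of all tested genes had no overlap, in either direction. At Day 10 the values were 41.0, 36.7 and 30.4 FPKM, at Day 15 they were 41.6, 43.7 and 41.6 FPKM, and at Day 20 they were 45.0, 47.5 and 46.3 FPKM. At Day 25 the mice had 53.8, 34.1 and 53.3 FPKM, at Day 30 they had 36.99, 47.6 and 53.6 FPKM, at Day 45 they had 68.2, 63.2 and 49.3 FPKM, and at Day 60 they had 80.3, 71.8 and 59.8 FPKM. The mean at Day 60, 70.6 ± 10.3 FPKM, was 8.58 times that at Day -2, 8.23 ± 1.83 FPKM.

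Compared with Day 60, Gjb2 was lower by a log2 difference of -2.96 at Day -2 (adjusted p = 4.54e-12) and -2.63 at Day 0. It was also lower at Day 5 (-0.91, adjusted p = 0.00148) and Day 10 (-0.95, adjusted p = 0.00166), where all 3 mice lay below all 3 mice of Day 60. Of all tested genes, 72% at Day 5 and 56.3% at Day 10 had no overlap with Day 60, in either direction. The differences at Day 3 (-0.56, adjusted p = 0.0402) and Day 15 (-0.72, adjusted p = 0.0254) lost their calls without mouse 1 of Day 60 (adjusted p = 0.136 and 0.106), without mouse 2 of Day 60, or without single mice of Day 3 or of Day 15. With upper quartile scaling they were -1.18 (adjusted p = 5.39e-05) and -0.73 (adjusted p = 0.0135), and with GC and length trends removed they were -1.06 and -0.77. Day 1 was then called too (-0.95 and -0.90).

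The step of Gjb1 between Day -2 and Day 0 was 1.62 and that of Gjb2 between Day 0 and Day 1 was 2.15 on the log2 scale. The ratio of Gjb1 to Gjb2 in FPKM was 10.9, 18.6 and 23.2 in the mice of Day -2, 17.8, 49.4 and 74.7 in those of Day 0, and 7.42, 7.89 and 10.9 in those of Day 1. At Day 60 it was 6.81, 7.95 and 11.4, so that the mice of Days 1 and 60 overlapped while the mice of Day 0 lay above both. Of the summed FPKM of 20 connexin genes, Gjb1 made up 91.1% ± 2.48 at Day -2, 95.7% ± 2.07 at Day 0 and 88.9% ± 2.44 at Day 60. Gjb2 made up 2.84% ± 2.12 at Day 0, 10.3% ± 1.81 at Day 1 and 10.6% ± 2.39 at Day 60. The connexin sum itself was 150.025 ± 20.6 FPKM at Day -2, 442 ± 62.1 FPKM at Day 0 and 673 ± 61.2 FPKM at Day 60.

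Gja1 encodes connexin 43, which in liver is known mainly from cells other than hepatocytes (chr10:56097106-56110225, plus strand, mm9). Its mean did not exceed 0.908 ± 0.227 FPKM, at Day 1, where the mice had 1.04, 1.04 and 0.646 FPKM. At Day 30, the age with the lowest mean, they had 0.128, 0.330 and 0.129 FPKM. About 34 fragments were estimated behind the lowest value, which gives a counting error of about 17%. Gja1 was tested in the fit without a filter on low values (18601 genes), in which it was higher over Days -2 to 5 than over Days 25 to 60 by a log2 difference of 0.43 (SE 0.07, adjusted p = 2.37e-06) and higher over Days 10 to 20 by 0.28 (adjusted p = 0.00389). With 1 added to each FPKM, these values understate the change of so low a gene. They are given on the deposited scale only, and no share of all genes is given for that fit. In the fit with the filter, 70.2% and 44.9% of all tested genes were higher in the same 2 comparisons. The summed level of 9 stellate cell and fibroblast markers moved in the same direction, with means of 106 to 168 FPKM at Days -2 to 5 and of 31.1 to 54.5 FPKM at Days 25 to 60, and none of the 9 was at 0 in all mice of an age. The mouse with the highest Gja1 of its age also had the highest stellate and fibroblast sum at 7 of the 12 ages and not at the other 5. The sum of 6 mesothelial markers fell as well, from means of 7.03 to 15.4 FPKM at Days -2 to 5 to 2.43 to 4.09 FPKM at Days 25 to 60. The means of summed endothelial markers overlapped between these ages. The part of any of these cells in the level of Gja1 was not tested.

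**Figure D2:**
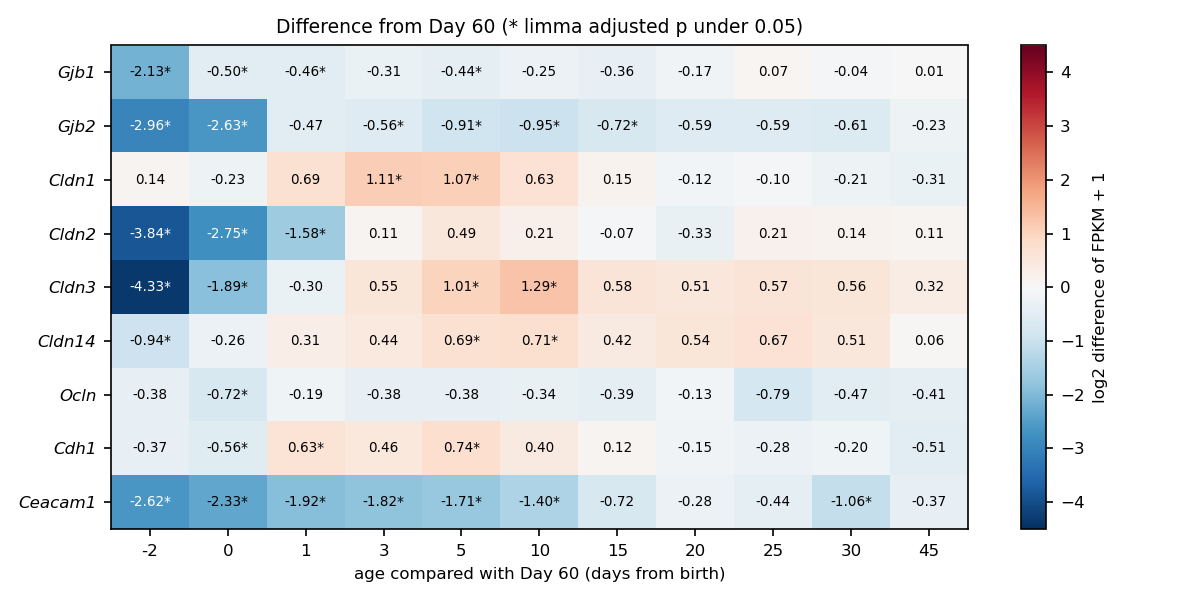
Difference from Day 60 on the log2(FPKM + 1) scale (colour) for the 9 tested junction genes (rows) at the 11 other ages (columns), each number being a difference of means of 3 mice, with an asterisk where the limma adjusted p was under 0.05. Cldn3 ran from -4.33 at Day -2 to 1.29 at Day 10, and at Days 20, 25 and 45 no gene had an asterisk.

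Among the tight junction genes, Cldn3 and Cldn2 changed by far larger factors than Cldn1, Cldn14 and Ocln. Cldn3 encodes claudin-3, a sealing claudin of bile canaliculi (chr5:135462084-135463342, plus strand, mm9). Its level was 2.17, 2.68 and 3.14 FPKM at Day -2, 21.1, 11.4 and 27.1 FPKM at Day 0, and 50.3, 59.3 and 66.6 FPKM at Day 1. At Day 3 the mice had 79.6, 118 and 128 FPKM, at Day 5 they had 128, 208 and 118 FPKM, and at Day 10 they had 139.8, 198 and 205 FPKM. From Day -2 to Day 3, every mouse of an age was above every mouse of the age before it. In the same steps 60.8%, 41.5% and 29% of all tested genes had no overlap, in either direction. The steps were 2.44 (SE 0.28, adjusted p = 5.56e-08) from Day -2 to Day 0, 1.59 (adjusted p = 0.000104) from Day 0 to Day 1 and 0.85 (adjusted p = 0.0471) from Day 1 to Day 3 on the log2 scale. The last of these was lost in 16 of 36 fits that each left out 1 mouse (adjusted p of up to 0.192, without mouse 3 of Day 3) and when libraries were scaled to a common upper quartile (0.71, adjusted p = 0.145).

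Cldn3 was 109, 86.0 and 137 FPKM at Day 15, 85.3, 100.1 and 128 FPKM at Day 20, and 85.0, 140.3 and 106 FPKM at Day 25. At Day 30 it was 127, 90.5 and 107 FPKM, at Day 45 it was 71.5, 85.6 and 122 FPKM, and at Day 60 it was 57.1, 65.9 and 100.4 FPKM. The Day 10 mean of 181 ± 35.6 FPKM was 67.8 times that of Day -2 (2.67 ± 0.485 FPKM), and at Day 60 the mean was 74.5 ± 22.9 FPKM. Day 10 exceeded Day 60 by 1.29 on the log2 scale (SE 0.28, adjusted p = 0.00039) and Day 5 exceeded it by 1.01 (adjusted p = 0.00255). With upper quartile scaling, the Day 5 difference was 0.38 (adjusted p = 0.294). Over Days 10 to 20, Cldn3 was higher than over Days 25 to 60 by 0.43 (adjusted p = 0.0181), and by 0.28 (adjusted p = 0.137) with that scaling.

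Cldn2 encodes claudin-2, which forms a pore for cations and water (chrX:136335367-136345925, plus strand, mm9). It was 0.406, 0.719 and 0.600 FPKM at Day -2, 1.65, 2.38 and 3.17 FPKM at Day 0, and 5.71, 12.6 and 3.67 FPKM at Day 1. At Day 3 the mice had 21.1, 24.1 and 25.1 FPKM and at Day 5 they had 32.99, 30.8 and 28.6 FPKM. No 2 of these 5 ages overlapped. Between neighbours among them, 60.8%, 41.5%, 29% and 19% of all tested genes had no overlap, in either direction. The log2 steps were 1.09 (SE 0.29, adjusted p = 0.00268) from Day -2 to Day 0, 1.17 (adjusted p = 0.0034) from Day 0 to Day 1 and 1.70 (adjusted p = 0.000205) from Day 1 to Day 3. Adding 1 to each FPKM understates the change of values as low as those of Day -2. With 0.1 added instead, the same steps were 1.87, 1.43 and 1.85, so their order by size depends on this setting. The value of 12.6 FPKM was that of mouse 2 of Day 1, the library with 91.95 FPKM of kidney markers, which also had 4.55 FPKM of Cldn10, 2.70 FPKM of Cldn19, 1.32 FPKM of Cldn8 and 0.549 FPKM of Cldn16, all of them claudins known from kidney. Without this library, mouse 1 of Day 0 and mouse 1 of Day 60, the step from Day 0 to Day 1 was 0.58 and was no longer called (adjusted p = 0.153).

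From Day 10 on, no difference of Cldn2 between neighbouring ages was called. The mice had 31.1, 24.9 and 20.4 FPKM at Day 10, 20.7, 20.8 and 19.8 FPKM at Day 15, and 17.9, 16.8 and 16.1 FPKM at Day 20. At Day 25 the values were 32.99, 18.8 and 25.3 FPKM, at Day 30 they were 12.1, 32.96 and 33.7 FPKM, at Day 45 they were 25.7, 23.8 and 20.9 FPKM, and at Day 60 they were 22.4, 23.1 and 19.4 FPKM. The 3 mice of Day 20 were below all mice of Day 15 (log2 difference -0.26, adjusted p = 0.945) and of Day 25. Of all tested genes, 16.2% and 26.2% had no overlap in these steps, in either direction. The Day 5 mean of 30.8 ± 2.19 FPKM was 53.6 times that of Day -2 (0.575 ± 0.158 FPKM). Compared with Day 60, Cldn2 was lower at Day -2 (log2 difference -3.84, adjusted p = 1.1e-12), at Day 0 (-2.75, adjusted p = 2.13e-09) and at Day 1 (-1.58, adjusted p = 2.52e-05), and the difference at Day 3 was 0.11 (95% interval -0.49 to 0.71). With 0.1 added to each FPKM in place of 1, the Day -2 difference was -5.03.

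Cldn1 encodes claudin-1, a sealing claudin that is widespread in epithelia (chr16:26356728-26371927, minus strand, mm9). In contrast to Cldn2 and Cldn3, it was already at 37.8, 21.4 and 31.2 FPKM at Day -2, which overlapped with the 23.7, 27.7 and 28.5 FPKM of Day 60. Its highest values were 68.2, 50.4 and 58.5 FPKM at Day 3 and 64.5, 46.0 and 61.8 FPKM at Day 5. All 6 of these were above all 3 mice of Day 60, where 74.1% and 72% of all tested genes had no overlap with Day 60, in either direction. The log2 differences of Cldn1 were 1.11 (SE 0.39, adjusted p = 0.0137) and 1.07 (adjusted p = 0.0175). With upper quartile scaling these were 0.50 (adjusted p = 0.241) and 0.45 (adjusted p = 0.302). The values at the remaining ages were 12.4, 39.1 and 23.2 FPKM at Day 0, 64.3, 46.0 and 27.5 FPKM at Day 1, 56.2, 35.5 and 36.4 FPKM at Day 10, 41.6, 28.6 and 21.6 FPKM at Day 15, and 26.9, 23.9 and 22.5 FPKM at Day 20. From Day 25 to Day 45 the values were 32.3, 13.002 and 35.3 FPKM, then 12.2, 35.7 and 26.8 FPKM, then 26.2, 27.04 and 13.3 FPKM. At each of these 3 ages a single mouse was at 13.3 FPKM or less while the other two had at least 26.2 FPKM.

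Cldn14 encodes claudin-14, a barrier claudin known from the inner ear, kidney and liver (chr16:93919276-94009082, minus strand, mm9). It was at 1.30, 1.79 and 1.61 FPKM at Day -2, at 2.03, 3.18 and 4.40 FPKM at Day 0, and at 4.40, 5.30 and 5.57 FPKM at Day 1. The step from Day -2 to Day 0 (log2 difference 0.68, adjusted p = 0.0352) was lost without mouse 2 or mouse 3 of Day 0 or without mouse 1 or mouse 3 of Day -2 (adjusted p of up to 0.181). At Day 10 its mean was at its highest, 7.03 ± 0.877 FPKM, with 7.99, 6.27 and 6.84 FPKM in the 3 mice, and at Day 60 the mice had 2.93, 3.08 and 6.30 FPKM. Over Days -2 to 5, Cldn14 differed from Days 25 to 60 by -0.26 (95% interval -0.52 to 0.0043) and was not called, but its value was -0.34 (adjusted p = 0.04) with 0.1 added to each FPKM in place of 1, -0.78 (adjusted p = 1.03e-05) with upper quartile scaling, -0.42 (adjusted p = 0.00476) after scaling to a common sum and -0.89 (adjusted p = 3.67e-09) with GC and length trends removed. It was also called in 10 of 36 fits that left out 1 mouse. Only the lower level at Day -2 (log2 difference -0.94, adjusted p = 0.0027) was called against Day 60 in each fit that left out 1 mouse. The higher levels at Day 5 (0.69, adjusted p = 0.0261) and Day 10 (0.71, adjusted p = 0.0319) were lost without mouse 1 or mouse 2 of Day 60, without single mice of Day 5 or of Day 10, and with upper quartile scaling (0.16 and 0.57).

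Ocln encodes occludin, a membrane protein of tight junction strands (chr13:101266462-101322673, minus strand, mm9). Its lowest mean was 1.05 ± 0.774 FPKM at Day 25 (1.92, 0.421 and 0.824 FPKM) and its highest was 2.41 ± 0.504 FPKM at Day 60 (1.86, 2.85 and 2.51 FPKM). The 12 mice of Days 25 to 60 spread over 6.78-fold, more than in any other of the 10 genes. Only Day 0, with 1.53, 0.923 and 0.778 FPKM, was called lower than Day 60 (log2 difference -0.72, adjusted p = 0.0246), and this was lost without mouse 2 or mouse 3 of either age. With upper quartile scaling Days -2, 3 and 5 were called lower as well (-0.76, -0.77 and -0.76). Over Days -2 to 5 and Days 25 to 60, Ocln differed by 0.0059 on the log2 scale (95% interval -0.27 to 0.28), and by -0.36 (adjusted p = 0.0115) with upper quartile scaling.

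The make-up of the claudins changed with age more than their sum. Among 23 claudin genes, the sum was 279 ± 7.04 FPKM at Day -2, 204 ± 26.3 FPKM at Day 0, 351 ± 45.5 FPKM at Day 5 and 157 ± 26.6 FPKM at Day 60. Before birth, Cldn13 made up 79.0% ± 2.90 of this sum, and its share was 60.3% ± 4.55 at Day 0 and 25.8% ± 3.94 at Day 1. By Day 5 it was 16.1% ± 4.76, by Day 10 it was 1.67% ± 0.563, and in the mice of Day 60 it was 0.0110% ± 0.0121. Cldn13 is a claudin that is not among the 10 genes and is named since it dominated the early sum. The share of Cldn3 was 0.956% ± 0.175 at Day -2 and 26.2% ± 5.54 at Day 1, and later 60.4% ± 8.57 (Day 10) and 46.8% ± 6.27 (Day 60). The share of Cldn2 went from 0.205% ± 0.0522 to 14.1% ± 3.30 between Day -2 and Day 60, whereas that of Cldn1 was between 10.9% ± 3.18 at Day -2 and 20.3% ± 8.27 at Day 1. The summed erythroid markers went in the same direction as Cldn13, with 3324 FPKM at Day -2, 193 FPKM at Day 10 and 69.4 FPKM at Day 60, and their part in the share of Cldn13 was not tested.

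**Figure D3:**
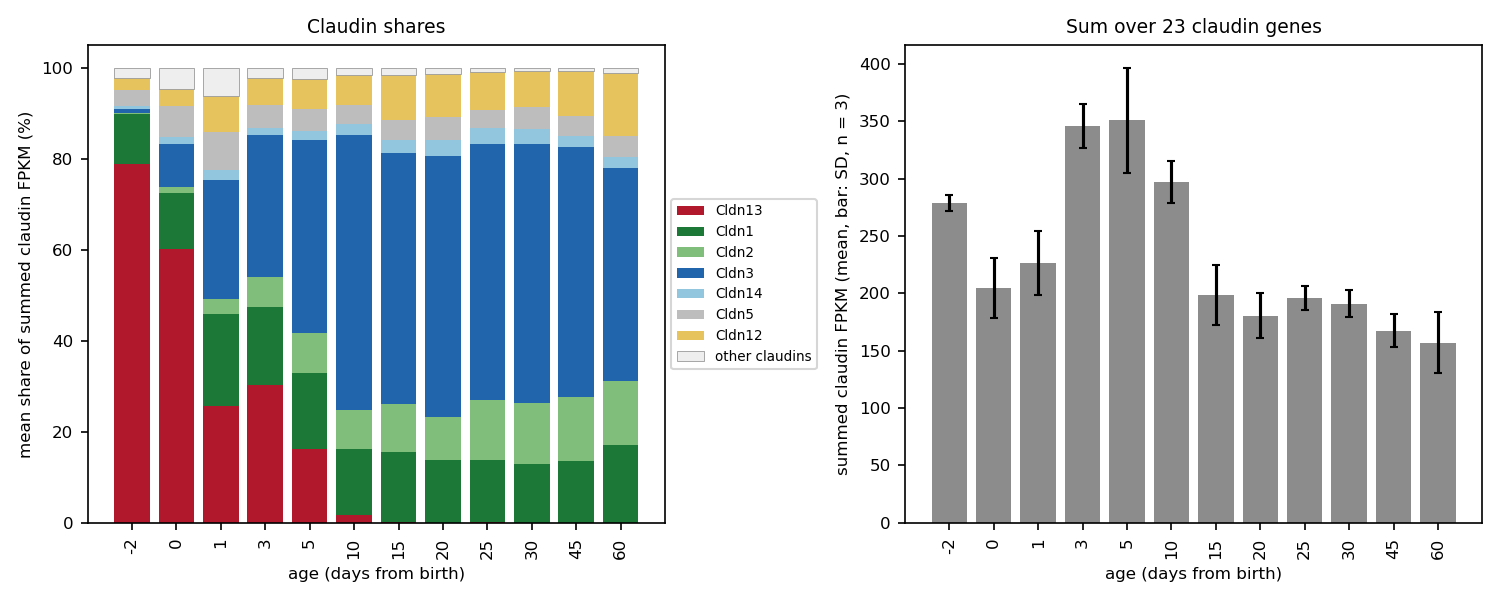
Shares of the summed FPKM of 23 claudin genes (vertical axis, percent, mean of 3 mice, stacked) at the 12 ages, with the summed FPKM (mean, bars ± SD) beside it. Cldn13 took 79.0% at Day -2 and 1.67% at Day 10, and Cldn3 took 0.956% and 60.4% at the same ages.

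Within single livers, the ratio of Cldn3 to Cldn1 in FPKM was 0.0576, 0.125 and 0.101 at Day -2, 2.49, 5.57 and 5.63 at Day 10, and 2.41, 2.38 and 3.52 at Day 60. Cldn1 thus exceeded Cldn3 in each mouse of Day -2, and Cldn3 exceeded Cldn1 in each mouse from Day 3 on. At Day 0 it did so in mice 1 and 3 (1.70 and 1.17) but not in mouse 2 (0.290), and at Day 1 in mice 2 and 3 (1.29 and 2.42) but not in mouse 1 (0.782). The ratio spread widely at Day 25 (2.63, 10.8 and 3.01), Day 30 (10.4, 2.54 and 4.01) and Day 45 (2.73, 3.17 and 9.19). At each of these ages it was highest in the mouse with the lowest Cldn1. The libraries of these mice also had low slopes with transcript length, as described below. The part of this in the ratio was not tested.

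Cdh1 encodes E-cadherin, the calcium-dependent adhesion protein of adherens junctions (chr8:109127251-109194146, plus strand, mm9). It was 13.6, 9.81 and 10.7 FPKM at Day -2, 8.97, 12.6 and 8.29 FPKM at Day 0, and 30.1, 22.98 and 19.01 FPKM at Day 1. It rose between Day 0 and Day 1 by 1.19 on the log2 scale (SE 0.24, adjusted p = 0.000416), and all 3 mice of Day 1 were above all 3 of Day 0. Between these ages 41.5% of all tested genes had no overlap, in either direction. At Day 3 the mice had 23.6, 18.1 and 21.3 FPKM, at Day 5 they had 28.7, 23.5 and 24.9 FPKM, and at Day 10 they had 25.2, 18.1 and 17.4 FPKM. At Day 15 the values were 17.6, 17.3 and 14.3 FPKM, at Day 20 they were 14.8, 11.9 and 13.5 FPKM, and at Day 25 they were 14.3, 7.49 and 16.3 FPKM. At Day 30 the mice had 8.74, 17.3 and 13.9 FPKM, at Day 45 they had 12.2, 11.9 and 7.11 FPKM, and at Day 60 they had 15.0, 13.9 and 15.8 FPKM. Against Day 60, Cdh1 was higher at Day 5 (0.74, adjusted p = 0.00741) and Day 1 (0.63, adjusted p = 0.0216), but these were 0.14 (adjusted p = 0.602) and 0.17 (adjusted p = 0.517) with upper quartile scaling. The call at Day 1 was also lost without mouse 1 of Day 1 or mouse 2 of Day 60. The lower level at Day 0 (-0.56, adjusted p = 0.0414) was lost without mouse 1 or mouse 3 of Day 0 (adjusted p of up to 0.15) or without any single mouse of Day 60, and was -0.87 (adjusted p = 0.000735) with that scaling. E-cadherin is also abundant in bile duct cells. The sum of 9 cholangiocyte markers, none of them at 0 in all mice of an age, had a mean of 12.3 FPKM at Day -2. It was 22.6 to 31.9 FPKM on average at Days 0 to 5 and 9.30 to 11.7 FPKM at Days 25 to 60. The Day 1 mean of 31.9 FPKM included 50.2 FPKM in mouse 2, the library with kidney markers, against 23.2 and 22.4 FPKM in mice 1 and 3. At Day 0, where Cdh1 had its lowest mean, the marker sum was 22.6 FPKM. The part of these cells in the level of Cdh1 was not tested.

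Ceacam1 was the slowest of the 10 genes to reach 50% of its highest mean, which it did at Day 15 (chr7:26246721-26262644, minus strand, mm9). The values were 4.11, 2.59 and 2.29 FPKM at Day -2, 3.58, 4.73 and 3.12 FPKM at Day 0, and 6.65, 5.75 and 3.96 FPKM at Day 1. At Day 3 the mice had 7.07, 4.90 and 5.63 FPKM, at Day 5 they had 6.67, 4.95 and 7.63 FPKM, and at Day 10 they had 10.8, 7.73 and 6.35 FPKM. All mice up to Day 10 were below all mice of Day 60. At each of these ages, 56.3% to 81.4% of all tested genes had no overlap with Day 60, in either direction. At Day 15 the values were 11.3, 16.2 and 13.8 FPKM, at Day 20 they were 19.7, 17.8 and 18.9 FPKM, and at Day 25 they were 20.3, 10.6 and 21.5 FPKM. At Day 30 the mice had 4.97, 14.6 and 15.4 FPKM, at Day 45 they had 23.4, 20.4 and 11.4 FPKM, and at Day 60 they had 23.7, 24.9 and 20.7 FPKM. The mean at Day 60, 23.1 ± 2.17 FPKM, was 7.71 times that at Day -2, 3.00 ± 0.979 FPKM.

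No step between neighbouring ages of Ceacam1 passed the test on the deposited scale. The largest before weaning was that from Day 10 to Day 15 (log2 difference 0.68, SE 0.30, unadjusted p = 0.0321 and adjusted p = 0.158 by limma). It was called with upper quartile scaling (0.84, adjusted p = 0.0434) and with GC and length trends removed (0.77, adjusted p = 0.0137), and with the latter so were the steps from Day -2 to Day 0 (0.60, adjusted p = 0.0166) and from Day 5 to Day 10 (0.65, adjusted p = 0.0212). Against Day 60, Ceacam1 was lower at each age from Day -2 (-2.62, adjusted p = 7.83e-09) through Day 5 (-1.71, adjusted p = 1.42e-05) and Day 10 (-1.40, adjusted p = 0.000353), and at Day 15 the difference was -0.72 (adjusted p = 0.0794, and 0.037 with upper quartile scaling). Day 30 was lower again (-1.06, adjusted p = 0.0449), which rested on mouse 1 with 4.97 FPKM, as the adjusted p without it was 0.461. The ratio of Ceacam1 to Cdh1 in FPKM was 0.303, 0.264 and 0.213 at Day -2, 0.428, 0.427 and 0.365 at Day 10, and 1.58, 1.79 and 1.31 at Day 60. The close paralog Ceacam2 lies in the same region (chr7:26301061-26325023, minus strand, mm9), and how reads were split between the 2 genes is uncertain. Ceacam2 was at 0.0611 FPKM on average at Day -2 and at 0.550 FPKM at Day 60, and the median ratio of Ceacam1 to Ceacam2 was between 31.6 and 50.9 at the 12 ages.

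Set by steps, birth and the first day of life held 8 of the 10 called changes between neighbouring ages. With GC and length trends removed there were 18 in place of 10. On the deposited scale, the steps of birth and the first day were also steps with large shares of all genes called (54.6% and 31.6%). From Day -2 to Day 0, Gjb1, Cldn2, Cldn3 and Cldn14 rose, which is 4 of 9 genes where 54.6% of all genes were called and 13.1% rose. From Day 0 to Day 1, Gjb2, Cldn2, Cldn3 and Cdh1 rose, which is 4 of 9 where 31.6% of all genes were called and 23.7% rose. The difference of Cldn1 in this step, 0.92, did not pass the test (adjusted p = 0.0713). From Day 1 to Day 3, Cldn2 and Cldn3 rose (11.3% of all genes called, 8.22% rose). In the later steps none of the 9 genes was called by limma. The share of all genes called was 36.3% from Day 5 to Day 10 and 12% from Day 10 to Day 15, where at an unadjusted p under 0.05 there were 0 and 2 genes, the 2 being Cldn3 and Ceacam1. In the other steps it was low, with 3.2% from Day 3 to Day 5, 1.99% from Day 15 to Day 20, 1.64% from Day 25 to Day 30, 1.03% from Day 30 to Day 45 and 0.233% from Day 45 to Day 60, and at an unadjusted p under 0.05 there were 0, 0, 1, 1 and 1 of the 9 genes. These shares are for the adjusted p, and none is given for the unadjusted threshold. With GC and length trends removed, Gjb1, Cldn3 and Ceacam1 rose from Day 5 to Day 10 and Ceacam1 from Day 10 to Day 15.

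Weaning, between Day 20 and Day 25, left the junction genes without a called change, at 7.19% of all genes called. Ocln had an unadjusted p under 0.05 by limma (log2 difference -0.65, adjusted p = 0.175) and was called with GC and length trends removed (-0.54, adjusted p = 0.0128). All 3 mice of Day 25 were above all 3 of Day 20 in Cldn2 (log2 difference 0.54, 95% interval -0.060 to 1.14, adjusted p = 0.325), where 26.2% of all tested genes had no overlap, in either direction. The intervals were wide, as for Cldn1 (0.017, 95% interval -0.79 to 0.82), Cldn3 (0.069, 95% interval -0.51 to 0.65) and Ceacam1 (-0.16, 95% interval -0.78 to 0.47). For Gjb1 the difference was 0.24 (95% interval -0.12 to 0.61) and for Gjb2 it was -0.0057 (95% interval -0.50 to 0.49). Changes of any size within a gene's interval are compatible with these values.

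Genes were also compared with each other by their courses, as a description over 12 age means of log2(FPKM + 1), which share the same 36 libraries. Cldn2 and Cldn3 had the highest Pearson r of the 9 genes (0.95), followed by Cldn3 and Cldn14 (0.94) and by Cldn1 and Cdh1 (0.91). When the deviations of the 36 mice from their age means were used instead, Cldn1 and Cdh1 still had an r of 0.90, whereas Cldn2 and Cldn3 had -0.27 and Cldn1 and Cldn3 had -0.64. Cdh1 and Ceacam1 had -0.18 over the age means and 0.87 over the deviations. Among all tested genes, the 3 with the course most like that of Gjb1 were Azgp1, Serping1 and Serpina1d, secreted proteins of liver, with r of 0.99, 0.98 and 0.98. For Gjb2 they were Nat15, Hsd17b4 and Clpx (0.98, 0.97 and 0.97), and for Cldn3 they were Agmat, Ctsh and Pglyrp2 (each 0.99). Cldn2 was nearest to St3gal3, Clec4g and Lyplal1 (0.98, 0.98 and 0.97), of which Clec4g is known from sinusoidal endothelium, and Cldn14 was nearest to Etfb, Tmem53 and Serpina3c (each 0.97). Cldn1 was nearest to 2810459M11Rik, Gm9199 and Il1a (0.97, 0.96 and 0.96) and Cdh1 to Aptx, Yap1 and Hsf2 (0.98, 0.96 and 0.96). Ceacam1 ran with Mccc1, Kcnn2 and the coagulation factor gene F9 (0.98, 0.98 and 0.97). Ocln had the least similar neighbours, Irf2, Otud1 and Klhl21 (0.91, 0.89 and 0.84).

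Deviations that the genes shared within an age went along with a property of the libraries. For each mouse, the deviations of 10887 genes from their age means were regressed on transcript length and GC content, which gave a slope per doubling of length (-0.195 to 0.149) and a slope per 10 points of GC (-0.240 to 0.209). Over the 36 mice, the deviations of Gjb1, Cldn3 and Cldn14 ran with the GC slope (r of 0.89, 0.81 and 0.68) and those of Ocln against it (-0.79). Those of Ceacam1, Cdh1, Cldn1 and Ocln ran with the length slope (0.86, 0.85, 0.83 and 0.76). The lowest length slope was that of mouse 1 of Day 30, the mouse with 4.97 FPKM of Ceacam1, 12.2 FPKM of Cldn1 and 8.74 FPKM of Cdh1. Mouse 2 of Day 25 and mouse 3 of Day 45, whose Cldn1 was 13.002 and 13.3 FPKM, had slopes of -0.155 and -0.110. These points share a library with the genes they are compared with, and a cause was not tested. When each library's trend with GC and length was removed, which also takes out any such trend that goes with age, Cdh1 over Days -2 to 5 was below Days 25 to 60 (-0.18, adjusted p = 0.0255) and not above.

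**Figure D4:**
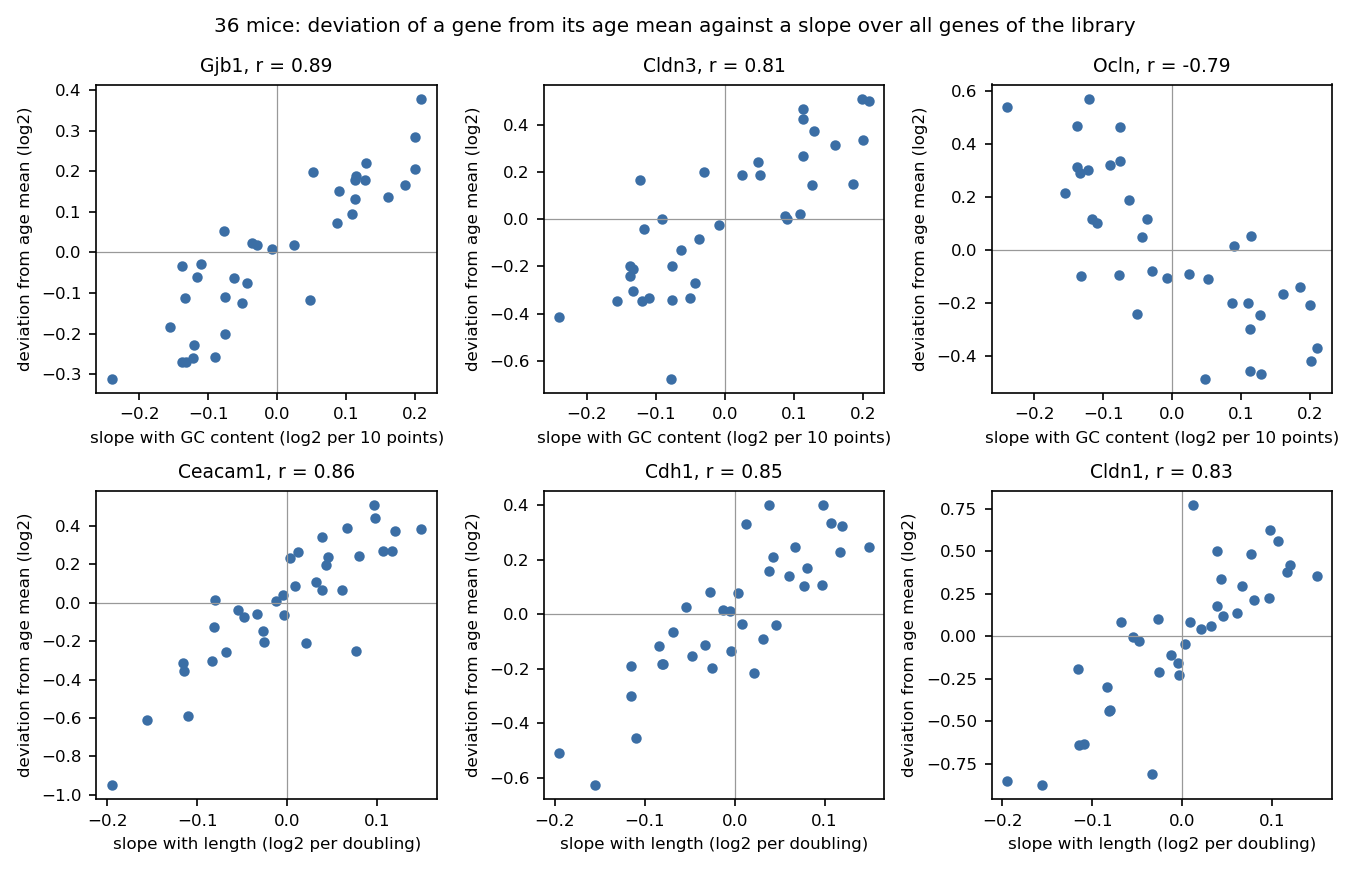
Deviation of a gene from its age mean on the log2(FPKM + 1) scale (vertical axes) against the slope of the same library with GC content (Gjb1, Cldn3, Ocln) or with transcript length (Ceacam1, Cdh1, Cldn1) on the horizontal axes, with a point for each of 36 mice. Gjb1 and Cldn3 rise with the GC slope (r of 0.89 and 0.81), Ocln runs against it (-0.79), and the 3 other genes rise with the length slope (r of 0.83 to 0.86).

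The partners of these proteins were looked at through 6 lists of genes of the same structures, which do not contain the 10 genes. Between Days -2 to 5 and Days 25 to 60, where 85.7% of all genes were called, the direction of these lists depended on how libraries were scaled, so each count is given also with upper quartile scaling. Of 20 further connexin and pannexin genes, 3 passed the filter and all 3 were higher at the early ages, but with upper quartile scaling 2 were higher and Gja4 was lower. Panx1, a pannexin, was higher by 1.30 on the log2 scale (adjusted p = 1.11e-18) and Gja5, the connexin 40 gene known from arterial endothelium, by 1.16 (adjusted p = 1.53e-13). Of 18 further claudins, 8 were tested, and 7 were higher and none lower (7 and 1 with upper quartile scaling). Cldn13 led them with 6.57 (adjusted p = 4.21e-31), followed by Cldn7 with 1.47 (adjusted p = 8.99e-13). Without mouse 2 of Day 1, the library with kidney markers, 6 claudins passed the filter and 5 were higher.

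Tight junction plaque and membrane proteins gave 9 higher and 2 lower genes of 14 tested (5 and 5 with upper quartile scaling). Csda, a transcription factor that binds the plaque protein ZO-1, was higher by 2.66 (adjusted p = 1.21e-23) and the angiomotin gene Amot by 1.13 (adjusted p = 2.01e-11). Tjp3, the gene for the plaque protein ZO-3, was lower by a log2 difference of -1.99 (adjusted p = 1.07e-18) and Cgnl1, a cingulin-like plaque protein, by -0.68 (adjusted p = 5.03e-06). Of 16 adherens junction and desmosome genes, 5 were higher and 5 lower, and with upper quartile scaling 1 was higher and 12 were lower. The focal and cell contact protein gene Vcl was higher by 1.11, and the alpha-catenin gene Ctnna1 was higher by 0.60 but by 0.0063 with upper quartile scaling (adjusted p = 0.955). Perp and Dsg2, which belong to desmosomes, were lower with -0.83 (adjusted p = 8.14e-12) and -0.64 (adjusted p = 0.00318).

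Of 15 tested polarity complex genes, 12 were higher and 2 lower (4 and 6 with upper quartile scaling). The kinase gene Mark2 (1.33) and Llgl1 (1.19), both of them on the basolateral side of the polarity network, were higher, and Prkcz (-0.59) and Pard3 (-0.31), which belong to the apical complex of atypical protein kinase C, were lower. Of 13 tested genes of the canalicular membrane and its trafficking, 6 were higher and 2 lower (3 and 5 with upper quartile scaling). Ezr, which encodes the membrane to actin linker ezrin, was higher by 2.83 (adjusted p = 1.62e-20) and the recycling endosome gene Rab11a by 0.92. Dpp4, a canalicular peptidase, was lower with -1.49 (adjusted p = 1.1e-10) and Slc9a3r1, a scaffold of apical membranes, with -0.43 (adjusted p = 1.51e-06). The list medians were 1.16, 0.92, 0.38, 0.00044, 0.36 and 0.22 on the log2 scale, in the order in which the lists were given, against 0.54 over all tested genes. All of these are values of whole liver, and the part of cells other than hepatocytes in the partner genes was not tested.

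The step from Day 0 to Day 1, in which Cdh1 rose, was also the one in which 11 of the 16 adherens junction and desmosome genes rose and none fell, where 31.6% of all genes were called and 23.7% rose. Their median log2 difference in this step was 0.77 against 0.19 over all genes. The list counts of this step are on the deposited scale only. With upper quartile scaling the all-gene median of the step was 0.077, so they may rest on the scaling too. In the same step 6 of 14 tight junction plaque genes rose and none fell, 7 of 15 polarity genes rose and 1 fell, and 4 of 13 canalicular genes rose and 1 fell. From Day 20 to Day 25 the lists held at most 1 called gene each.

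**Figure D5:**
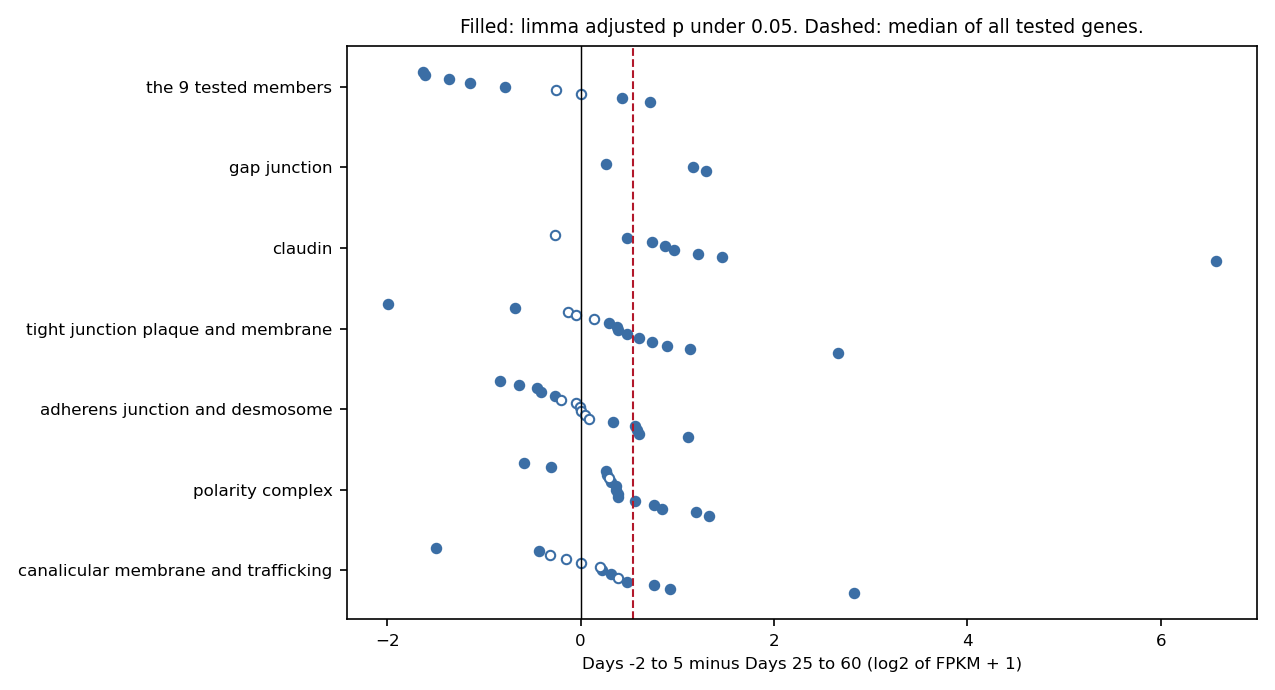
Log2 difference between Days -2 to 5 and Days 25 to 60 (horizontal axis) of the 9 tested junction genes (top row) and of each tested gene of the 6 partner lists (rows below). Points are filled where the limma adjusted p was under 0.05, and a dashed line marks the all-gene median of 0.54. Cldn13 lies farthest to the right at 6.57 and Tjp3 farthest to the left at -1.99, and most genes of the adherens junction and desmosome list lie left of the dashed line.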

How the data were processed

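Poly-A-selected liver RNA of 36 male mice was sequenced, and the authors deposited FPKM values per gene symbol, made with TopHat 1.2.0 on mm9 and Cufflinks 1.0.3 per the submitters' processing notes; the authors named no scaling between libraries beyond FPKM. Groups were taken from the age labels. Those 11149 genes whose mean reached 1 FPKM or more at any age were tested as log2(FPKM + 1) with limma 3.58.1 in R 4.3.3, with 1 mean per age and a variance trend, and p-values were adjusted by Benjamini-Hochberg over all tested genes within each comparison at a threshold of 0.05. The 25 comparisons were each age against Day 60, neighbouring ages, and 3 age groups. Fragment depth was estimated from the steps between low values. The genes used for this were chosen again once, after the first choice gave few whole steps. Alternatives were another pseudocount (0.1), no filter or a minimum of 5 FPKM, 2 other scalings, no variance trend, the replicate number as a block, Dunnett's comparison and each mouse left out. Those leaving out 3 libraries together and removing GC and length trends were chosen after seeing the data, as were the kidney and squamous marker lists. The text names all 10 genes, at most 2 risen and 2 fallen genes of each partner list, and the 3 nearest genes by course. The genes and lists were chosen with earlier results of these data known. Gene coordinates are those of GENCODE for mm9, and upstream sequences are from RefSeq. Drawings and tables were made with Python 3.11.15.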

Additional observations from a re-analysis of the deposited data

How the results depend on the processing

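The count of calls against Day 60, summed over 9 genes and 11 ages, was 33 and went to 21 with Dunnett's comparison, for which no share of all genes is given. The 10 calls between neighbouring ages went to 18 with each library's GC and length trend removed. With 1 mouse left out the counts were from 25 (without mouse 2 of Day 60) to 38 against Day 60, from 8 to 11 between neighbouring ages, and 7 to 8, 3 to 5 and 6 to 7 in the 3 comparisons of age groups. Of 60 calls, 45 held in every such fit, 12 were lost with upper quartile scaling and 7 were lost or turned with GC and length trends removed. A further setting left out 3 libraries (mouse 1 of Day 0, mouse 2 of Day 1 and mouse 1 of Day 60), and 8 calls were lost. Other libraries with pancreatic marker sums, of up to 9215 FPKM, stayed in that fit. Upper quartile scaling reversed the sign for Gjb1 from Day 0 to Day 1 (-0.11), Gjb2 from Day 20 to Day 25 (0.031), Cldn1 at Days -2 to 5 against Days 10 to 20 (-0.145) and at Day -2 against Day 60 (-0.44), Ocln at Days -2 to 5 against Days 25 to 60 (-0.36), and Cdh1 in the same comparison (-0.17), against Days 10 to 20 (-0.41) and from Day -2 to Day 0 (0.063). Scaling to a common sum did so for Gjb2 at weaning (0.015), Ocln at Days -2 to 5 against Days 25 to 60 (-0.068) and Cdh1 at Days -2 to 5 against Days 10 to 20 (-0.044). Removing GC and length trends did so for Gjb2 at weaning (0.030), Cldn1 from Day -2 to Day 0 (0.18) and at Day -2 against Day 60 (-0.13), Ocln at Days -2 to 5 and Days 10 to 20 against Days 25 to 60 (-0.32 and -0.0062) and from Day -2 to Day 0 (0.26), and Cdh1 at Days -2 to 5 against Days 25 to 60 (-0.18) and against Days 10 to 20 (-0.30) and from Day -2 to Day 0 (0.060). Leaving out the 3 libraries did so for Gjb1 from Day 0 to Day 1 (-0.14), Gjb2 and Cldn1 from Day -2 to Day 0 (-0.086 and 0.038) and Ocln at Days -2 to 5 against Days 25 to 60 (-0.034).

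With 1 mouse left out, signs changed in results near 0 that were not called: Gjb1 from Day 0 to Day 1 (-0.089 to 0.14), Gjb2 and Cldn1 from Day -2 to Day 0 (-0.086 to 0.65 and -0.75 to 0.038), Cldn1 at Day -2 against Day 60 (-0.036 to 0.36), Ocln at Days -2 to 5 against Days 25 to 60 (-0.055 to 0.077), and at weaning Gjb2 (-0.12 to 0.21), Cldn1 (-0.23 to 0.45), Cldn3 (-0.12 to 0.24), Cldn14 (-0.18 to 0.36), Cdh1 (-0.33 to 0.18) and Ceacam1 (-0.33 to 0.15).

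For the partner lists at Days -2 to 5 against Days 25 to 60, no filter gave 11 higher gap junction genes, and the filter at 5 FPKM left 0 of them, 2 higher claudins, 3 higher and 1 lower tight junction genes, and 7 higher and 1 lower polarity genes, since fewer genes were tested. Upper quartile scaling gave 1 lower gap junction gene, 1 lower claudin, 5 higher and 5 lower tight junction genes, 1 higher and 12 lower adherens genes, 4 higher and 6 lower polarity genes, and 3 higher and 5 lower canalicular genes. Scaling to a common sum gave 1 lower claudin. Removing GC and length trends gave 1 lower gap junction gene, 1 lower claudin, 5 and 9 tight junction genes, 1 and 12 adherens genes, 4 and 8 polarity genes, and 3 and 9 canalicular genes, higher and lower in that order. With 1 mouse left out, the higher claudins were 5 to 8 and the lower ones 0 to 1. The cause of these shifts was not tested.

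With the replicate number as a block, 5 calls were gained and 0 lost, among them Cldn14 at Days -2 to 5 against Days 25 to 60 (-0.26, adjusted p = 0.0308), and no count moved by over 1.5 times. The numbers were not taken as pairs, since the labels tie them to nothing shared and 104 of 198 same-numbered pairs of mice had deviations with an r over 0.1 (median 0.126, -0.68 to 0.829, against -0.0476 for other pairs). In 44.7% of 396 choices among the 3 mice of another age, the highest r was with the same number. Mouse 1 had a GC slope below 0 at 11 of 12 ages and Gjb1 below its age mean at 12, so the number went with a property of the libraries. The depth limits the lowest values, with about 107 fragments behind the lowest Cldn2 and 147 behind the lowest Ocln.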
